A study of Mus musculus with 116 samples.

Results

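FDB1 is a factor-dependent myeloid cell line of the mouse. The arrays described here hybridised RNA of FDB1 cells that carry the FI-Delta receptor mutant and were left without factor together with RNA of parental FDB1 cells in GM-CSF, at 12, 24 and 48 hours. They were chosen by their labels, as every array that pairs these lines at these times, and are 12 of the 116 arrays of the series. At each time there were 4 arrays, which are 2 replicates in both dye orders. Before 0 hours all cells were in medium with 500 U/mL of mouse IL-3 and 10% fetal calf serum. At 0 hours they were washed, and from then on the parental cells had 500 U/mL of mouse GM-CSF and the FI-Delta cells had none. Line and factor differ together in every ratio, so the mutant and the absence of GM-CSF cannot be told apart.

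The labels name 1 FI-Delta line and do not say whether it is a clone or a pool. Nothing in them tells whether the replicates came from separate cultures, and the p-values then cover no more than the spread of these samples, which may be technical. All replicate 1 arrays came from print run 1 of the slides and all replicate 2 arrays from print run 2, so replicate and print run cannot be told apart.

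As background, GM-CSF, IL-3 and IL-5 bind receptors made of an alpha chain of their own and a beta chain that they share. FI-Delta is a mutant of this beta chain that signals with no factor bound. FDB1 cells are known to divide in IL-3 and to mature into granulocytes and macrophages in GM-CSF. Maturing neutrophils make their granules in order: myeloperoxidase and elastase go into primary granules, and lactoferrin, Ngp, lipocalin and collagenase into granules formed later.

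The measurement is the log2 ratio of the 2 colours on an array, turned so that a value above 0 is higher in FI-Delta cells. Cy5 was taken as the numerator. This is the likely reading, though no label states it, and if it were the reverse every sign below would turn. A value of 1 is a 2-fold difference. The 2 dye orders of a replicate were averaged into a dye-swap mean, so each time has n = 2 and the 3 times together have 6 values. Differences were tested with limma over 21797 probes at an adjusted p of 0.05, in a fit that also held the ratios of the same lines at 0, 6 and 72 hours. Signal over background is unknown in these values, so precision is limited by how many arrays there are. Array medians lay between -0.0038 and 0.005, and the dye-swap means of replicate 1 and 2 correlated across probes at r = 0.28, 0.17 and 0.25 at 12, 24 and 48 hours and at r = 0.40 for the mean of the 3 times. In that mean the median standard error (SE) was 0.053, against 0.092 at a single time.

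More probes passed in the mean of the 3 times, which rests on 6 values, than at any single time. The 6 values are 3 times of 2 replicates, and the fit without a block takes them as independent. Differences between the replicates correlated between times at r = -0.07 to 0.39. In the mean of 12, 24 and 48 hours, 365 probes were higher and 330 lower in FI-Delta cells, which is 3.19% of the probes tested. With the replicate block, which is also the print run, the count was 1219 (5.59%), and all 695 probes were among them. The block takes out a replicate difference shared by the times, so that overlap does not show that calls hold over replicates. Of the 695, 608 had the same sign in all 6 dye-swap means, against 13.2% of all probes. The calls were made on the mean of the same 6 values, so such agreement was likely beforehand. At least 2-fold differences were seen in 13 of the 695, 12 of them higher. The count was 259 without replicate 2 at 12 hours, 292 without replicate 2 at 24 hours and 344 without replicate 2 at 48 hours.

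At single times fewer probes passed. At 12 hours 28 were higher and 7 lower (0.161% of probes; 0.395% with the block), and 34 of these 35 also passed in the mean. At 24 hours 1 probe passed (0.00459%; 0.101% with the block), and at 48 hours 4 did, 2 in each direction (0.0184%; 0.312% with the block). The block gave 86, 22 and 68 probes at the 3 times. The count at 12 hours was 53 without either replicate of 48 hours, that at 24 hours was 30 or 33 without replicate 1 or 2 of 24 hours, and that at 48 hours was 99 or 66 without replicate 1 or 2 of 48 hours. Only the probe CGEN_MOUSE_EXT_3105177_1, which has no gene name here, passed at each of the 3 times. Its dye-swap means were 1.80 and 1.37 at 12 hours, 1.96 and 2.07 at 24, and 2.32 and 2.21 at 48 hours (replicate 1 first, here and below), and at 0 hours it was already at 1.06 and 1.84. With the block 7 probes passed at all 3 times, all of them higher, and 4 of these have a gene name: Mpeg1, Mmp8, Capn3 and Lalba.

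**Figure D1:**
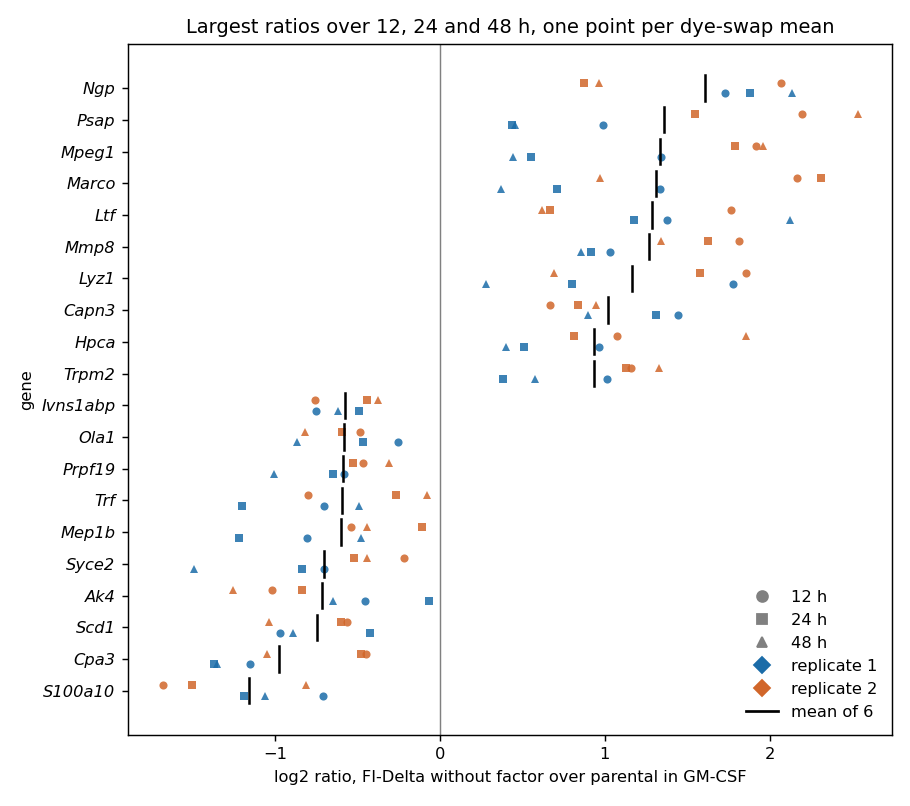
Each point is 1 dye-swap mean of the log2 ratio of FI-Delta over parental RNA (horizontal axis) for the genes with the largest 3-time means (vertical axis), with colour for the replicate, shape for the time and a black bar for the mean of the 6. Ngp lies between 0.87 and 2.14 and S100a10 between -1.68 and -0.71. Genes were drawn only if all 6 points lay on the same side of 0.

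Late neutrophil genes, called the late granule list here though not all encode granule proteins, had the highest list median over both replicates. That ranking held in replicate 1 (0.84) but not in replicate 2 (0.27). There the macrophage (0.32), lysosome (0.28), S100 and annexin (0.33) and glandular kallikrein (0.41) medians were higher. Of 19 measured, 10 were higher in FI-Delta cells in the mean of the 3 times and none lower, where 2.35% of 15097 gene symbols were higher. Their median log2 ratio was 0.53, against 0.00 over all symbols. Leaving out any 1 dye-swap mean lowered the calls over all symbols in both directions. List counts without a mean, here and below, are to be read beside that fall. Ngp, a cathelicidin-related granule protein, and Ltf, the iron-binding lactoferrin, led them with Mmp8, the neutrophil collagenase. Lower RNA per cell and fewer cells of a type cannot be told apart in these bulk samples.

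Ngp was at 1.73 and 2.07 at 12 hours, 1.88 and 0.87 at 24, and 2.14 and 0.97 at 48 hours. The lowest of these 6 values were in replicate 2 at 24 and 48 hours. Its 3-time mean was 1.61 (SE 0.15, n = 6, limma adjusted p = 0.00077), a 3.05-fold difference, and at 12 hours alone it passed at 1.90 (SE 0.26, n = 2, limma adjusted p = 0.022). Ltf was at 1.38 and 1.76 at 12 hours, 1.18 and 0.67 at 24, and 2.12 and 0.62 at 48 hours. Its replicates lay far apart at 48 hours and near each other at 12 hours, and the 3-time mean was 1.29 (SE 0.19, n = 6, limma adjusted p = 0.0055). Mmp8 was at 1.03 and 1.82, then 0.92 and 1.63, then 0.86 and 1.34 at the 3 times. Replicate 2 was the higher at each time, and the mean was 1.27 (SE 0.15, n = 6, limma adjusted p = 0.0020).

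The other late granule genes that passed were Fpr2, a formyl peptide receptor (0.89), Lcn2, the siderophore-binding lipocalin (0.83), S100a9, the calprotectin subunit (0.65), Wfdc21 (0.63), Lrg1 (0.53), Anxa1 (0.46) and Hp, haptoglobin (0.32). Hp was at 0.82 at 12 hours but at 0.09 and 0.05 at 24 and 48 hours, with 0.40 at 0 hours. Wfdc21 was at 1.22, 0.41 and 0.27 at the 3 times, with 0.53 at 0 hours. Mmp9, gelatinase B, had a mean of 1.10 and Camp, the cathelicidin, of 0.74, and neither passed (limma adjusted p = 0.080 and 0.098). Cxcr2, Cd177 and Chil3 had means between -0.02 and 0.01. With the block 14 of the 19 passed (3.86% of all symbols were higher with it), and without a single dye-swap mean 6 to 11 did. The low count of 6 came without replicate 1 of 24 hours and without replicate 1 of 48 hours. The list's median was 0.84 in replicate 1 and 0.27 in replicate 2.

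Promoter sequence is shown for the 3 leading late granule genes because they had the largest 3-time means of the list, and capitals mark each match to TTGCNNAA, a core of the sites bound by the C/EBP factors of myeloid cells. The search covered both strands of the 250 bases before the start of each gene in RefSeq (GRCm38.p6), and the motif was chosen after the values were seen. Ngp lies on chr9:110419558-110419807 on the plus strand, with matches that begin 138 and 11 bases before the start. Ltf lies on chr9:111019042-111019291, plus strand, with a match 75 bases before the start. Mmp8 lies on chr9:7558179-7558428, plus strand, with a match 19 bases before it.
Ngp: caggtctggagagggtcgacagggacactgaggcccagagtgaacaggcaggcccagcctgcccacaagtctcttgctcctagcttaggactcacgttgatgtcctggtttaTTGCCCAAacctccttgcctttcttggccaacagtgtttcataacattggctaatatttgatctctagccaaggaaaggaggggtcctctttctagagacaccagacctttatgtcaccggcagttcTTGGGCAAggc
Ltf: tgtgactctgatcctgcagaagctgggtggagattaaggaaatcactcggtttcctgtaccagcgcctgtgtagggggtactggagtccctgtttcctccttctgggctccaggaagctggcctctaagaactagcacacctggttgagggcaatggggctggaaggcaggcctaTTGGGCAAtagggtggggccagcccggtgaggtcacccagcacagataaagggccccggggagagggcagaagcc
Mmp8: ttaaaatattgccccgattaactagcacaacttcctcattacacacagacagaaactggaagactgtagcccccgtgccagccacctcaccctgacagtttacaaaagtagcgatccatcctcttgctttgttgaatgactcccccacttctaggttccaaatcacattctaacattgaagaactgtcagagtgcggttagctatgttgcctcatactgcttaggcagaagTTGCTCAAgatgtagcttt
A match was found in 6 of the 8 genes of the 10 called that have a promoter window (Anxa1, Lcn2, Ltf, Mmp8, Ngp and S100a9), in 6 of 16 measured list members with a window, and in 10.8% of 27025 genes. A match is a description of these letters and shows no binding.

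Genes of the primary granule list, not all of which encode granule proteins, did not go the same way. Of 15 measured none was higher and 2 were lower, Ctsg, cathepsin G (-0.35, limma adjusted p = 0.013), and Calr, a chaperone of the endoplasmic reticulum (-0.42), where 2.13% of all symbols were lower. The count of lower genes was 1 without replicate 2 of 12, 24 or 48 hours, 3 without replicate 1 of 48 hours and 2 without either other mean. Mpo was at -0.17, Elane at -0.30 and Prtn3 at -0.04, and none of these passed. At 0 hours Elane and Prtn3 had ratios of -1.01 and -1.03. The list's median was 0.09 in replicate 1 and -0.29 in replicate 2, so its direction differed between the replicates.

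Macrophage and phagocyte genes were also higher, in more genes and with a smaller median over both replicates. In replicate 2 alone their median was above that of the late granule genes (0.32 against 0.27). Of 45 on the list 13 passed as higher (28.9%, against 2.35% of all symbols) and none as lower, 41 had a mean above 0, and the median was 0.24. Among them were Mpeg1, a pore-forming protein of macrophages, Marco, a scavenger receptor, Lyz1, a lysozyme, and Psap, the precursor of the saposins of the lysosome. The count was 17 with the block and 6 without replicate 2 of 12, of 24 or of 48 hours, and the list's median was 0.11 in replicate 1 and 0.32 in replicate 2.

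Mpeg1 was at 1.34 and 1.92 at 12 hours, 0.55 and 1.79 at 24, and 0.44 and 1.96 at 48 hours, with replicate 2 the higher each time. The 3-time mean was 1.33 (SE 0.20, n = 6, limma adjusted p = 0.0061). Marco was at 1.34 and 2.17, then 0.71 and 2.31, then 0.37 and 0.97, for a mean of 1.31 (SE 0.18, n = 6, limma adjusted p = 0.0046). Lyz1 was at 1.78 and 1.86, then 0.80 and 1.58, then 0.28 and 0.69, and was lowest at 48 hours in both replicates. It passed at 12 hours alone at 1.82 (SE 0.22, n = 2, limma adjusted p = 0.017) and in the mean at 1.16. The difference between 48 and 12 hours passed for no probe, Lyz1 included.

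Psap was at 0.99 and 2.20, then 0.43 and 1.55, then 0.45 and 2.53, for a mean of 1.36 (SE 0.30, n = 6, limma adjusted p = 0.035). It did not pass without replicate 2 of 12 hours, either replicate of 24 hours or replicate 2 of 48 hours, and a second Psap probe had a mean of 1.04 (limma adjusted p = 0.031). Lower on the list, and past the threshold, were Ctss, cathepsin S (0.87), Clec4n, the Dectin-2 lectin (0.81), Itgam, the CD11b integrin (0.72), Fcgr3, an Fc receptor (0.59), and Cd68 (0.43). Of the 36 lysosome genes, some of them on the macrophage list too, 6 were higher (16.7%, against 2.35% of all symbols) and none lower. That count was 10 with the block, where 3.86% of all symbols were higher. Without replicate 2 of 12, 24 and 48 hours the list's median was 0.135, 0.106 and 0.082, against 0.153 with all means. Fewer genes of the list, and fewer of all symbols, passed in these fits.

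Neighbouring groups of phagocyte genes were higher in part. Both Rac2 (0.22) and Cybb, the catalytic subunit (0.54), passed among 5 measured genes of the NADPH oxidase, the enzyme complex of the oxidative burst (40%, against 2.35% of all symbols). In the BCL2 family the copies Bcl2a1a, Bcl2a1c and Bcl2a1d, which are near-identical and may share signal on an array, had means of 0.51, 0.50 and 0.53, and Mcl1, another anti-apoptotic member, had 0.30. These 4 were all that passed of 24 (16.7%, against 2.35% of all symbols). At 0 hours Bcl2a1a was at 0.89 and 0.91 and Bcl2a1d at 1.36 and 0.80, larger than their means of the later times, and both passed there (0.90 and 1.08, limma adjusted p = 0.023 and 0.039, n = 2). Among 26 measured genes of oxidative defence and iron, Slc11a1, a metal transporter of phagosomes (0.83), Osgin1 (0.71), Prdx1, a peroxiredoxin (0.38), and Nqo1 (0.31) were higher. Tfrc, the transferrin receptor (-0.39), and Sod1 (-0.23) were lower. Higher genes were 15.4% of that list and lower ones 7.69%, against 2.35% and 2.13% of all symbols. Without a single dye-swap mean, 0 or 1 NADPH oxidase genes, 2 or 3 BCL2 family genes and 2 to 4 genes of oxidative defence passed as higher.

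S100 and annexin genes, most of which encode calcium-binding proteins, were split by 1 member. Of 16 measured 6 were higher, among them S100a6 (0.74), S100a9 (0.65) and S100a11 (0.40), and S100a10 alone was lower. Higher genes were 37.5% of the list and lower ones 6.25%, against 2.35% and 2.13% of all symbols. S100a10, the partner of annexin A2, was the lowest named gene of the comparison. It was at -0.71 and -1.68 at 12 hours, -1.19 and -1.51 at 24, and -1.06 and -0.81 at 48 hours. The mean was -1.16 (SE 0.12, n = 6, limma adjusted p = 0.0012), a 2.23-fold difference, and at 0 hours it was at -0.38 and -0.73.

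Other genes with large higher ratios do not belong to these groups. Capn3, a calpain protease, had a 3-time mean of 1.02 and Hpca, a neuronal calcium sensor, of 0.94. Trpm2, a calcium channel opened by oxidative stress, had 0.93. All were picked with the same sign in all 6 dye-swap means. Capn3 lay between 0.67 and 1.45, and its ratio at 0 hours was 0.75 and 0.72. At 12 hours the named genes that passed also included Wfdc21 (1.58 and 0.87), Mcemp1, a membrane protein of mast cells and monocytes (1.27 and 0.96), Klhdc4 (1.19 and 0.72) and Ly6c1, a surface antigen of monocytes (0.91 and 0.95). At 24 hours Mcemp1 was at 0.31 and 0.05 and Ly6c1 at 0.23 and 0.33, below their 12-hour values in both replicates. None of the 12 genes named for 12 hours passed there without replicate 1 of 12 hours or in a fit on the 3 times alone, and 8 of them did not pass without replicate 2 of 12 hours.

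**Figure D2:**
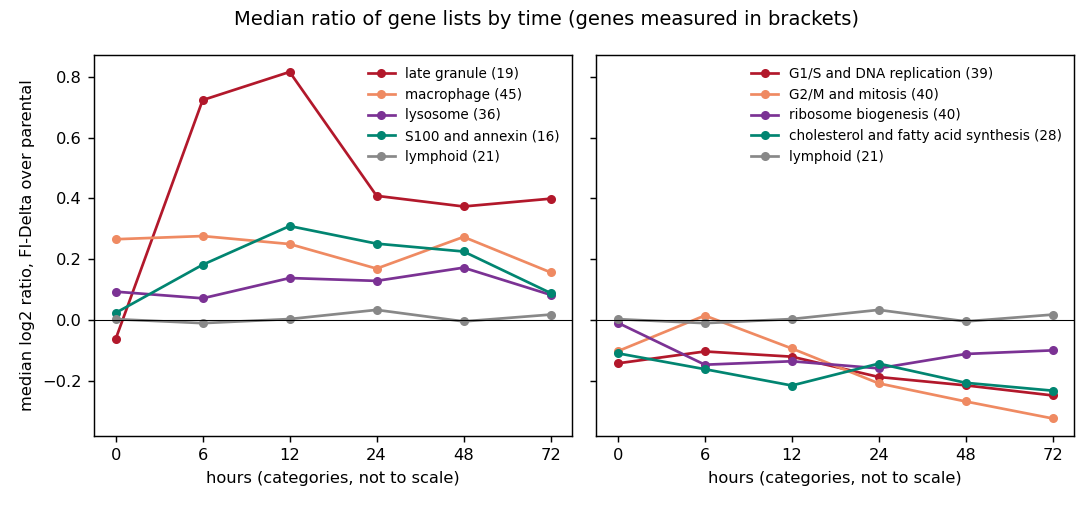
Median log2 ratio of FI-Delta over parental RNA (vertical axis) over the genes of each list at each time in hours (horizontal axis, in order but not to scale), with the number of genes in brackets. The late granule median goes from -0.06 at 0 hours to 0.82 at 12 hours, the macrophage median is 0.27 at 0 hours already, the G2/M median reaches -0.32 at 72 hours, and the lymphoid median stays between -0.01 and 0.03.

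Cell cycle genes were lower in FI-Delta cells. Of 39 G1/S and DNA replication genes 10 were lower and none higher in the 3-time mean, and of 40 G2/M and mitosis genes 15 were lower and none higher, where 2.13% of all symbols were lower. The medians were -0.17 and -0.18. The replicative helicase subunits Mcm6 (-0.54), Mcm3 (-0.47), Mcm4 (-0.39) and Mcm5 (-0.32) and the ribonucleotide reductase subunit Rrm2 (-0.37) were among the first, and the spindle checkpoint genes Mad2l1 (-0.46) and Bub1 (-0.37), the kinetochore gene Ndc80 (-0.43), and the cyclin-dependent kinase subunits Cks2 (-0.34) and Cdk1 (-0.27) among the second.

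The replicates differed in the G1/S ratios at 12 hours. Mcm6 was at -0.11 and -0.56 at 12 hours, -0.66 and -0.51 at 24, and -0.85 and -0.58 at 48 hours, and its mean was -0.54 (SE 0.099, n = 6, limma adjusted p = 0.013 over symbols). Mcm4 was at 0.25 and -0.38 at 12 hours, with opposite signs, and below 0 in the other 4 values. The G1/S median was -0.06 in replicate 1 and -0.30 in replicate 2, and that of G2/M was -0.14 and -0.22. Without a single dye-swap mean the G1/S count ran from 1 to 12. It was 1 without replicate 2 of 12 hours, 2 without replicate 2 of 24 hours, and 6 and 3 without replicate 1 and 2 of 48 hours. The G2/M count ran from 3 to 12. It was 8 and 6 without replicate 1 and 2 of 12 hours, 3 without replicate 2 of 24 hours, and 8 and 4 without replicate 1 and 2 of 48 hours. The block gave 18 and 20, where it gave 3.36% of all symbols as lower.

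Letters that match TTTNNCGC, a form of the site of the E2F factors that control S phase genes, were searched in the same windows, also after the values were seen. They were in 3 of the 7 called G1/S genes with a window (Mcm5, Mcm6 and Rfc3) and 9 of 32 measured ones, in 1 of 12 called G2/M genes (Cdk1) and 2 of 32 measured ones, and in 4.94% of all genes. The window of Mcm6, with the largest ratio of the G1/S genes, is shown with its matches in capitals. It lies on chr1:128359706-128359955 on the minus strand (GRCm38.p6).
Mcm6: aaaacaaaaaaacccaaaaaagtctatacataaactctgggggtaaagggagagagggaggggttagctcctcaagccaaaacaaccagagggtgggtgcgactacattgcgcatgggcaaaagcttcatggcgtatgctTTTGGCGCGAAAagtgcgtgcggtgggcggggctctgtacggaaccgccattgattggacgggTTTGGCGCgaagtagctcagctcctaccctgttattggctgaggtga

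Of the 25 genes of cell cycle exit, 2 were higher, the cyclin-dependent kinase inhibitor Cdkn2b (0.32) and the Myc antagonist Mxi1 (0.27), and E2f4, a repressor E2F, was lower (-0.20). These are 8% and 4% of the list, against 2.35% and 2.13% of all symbols. The count of higher genes was 4 with the block, 3 without replicate 2 of 48 hours, 1 without replicate 1 of 24 or of 48 hours, and 0 without replicate 2 of 24 hours or either replicate of 12 hours. Genes for making ribosomes were lower as well: 8 of 40 (20%, against 2.13% of all symbols) passed as lower and none as higher, and 3 had a mean above 0. Nop56, a core protein of small nucleolar particles (-0.53), Polr1b, a subunit of RNA polymerase I (-0.42), Nop58 (-0.36) and Npm1, nucleophosmin (-0.26), were among the 8. The count was 11 with the block and 3 or 4 without replicate 2 of 12 hours or any dye-swap mean of 24 or 48 hours. Of 23 chaperones 4 were lower (17.4%, against 2.13% of all symbols) and none higher, led by Hspd1, the mitochondrial chaperonin (-0.54). Without a single dye-swap mean the list's median lay between -0.182 and -0.100, against -0.141 with all means.

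Of the 35 genes of the amino acid and stress list 5 were lower and 2 higher, with a median of -0.08. Lower genes were 14.3% of the list and higher ones 5.71%, against 2.13% and 2.35% of all symbols. Phgdh, the first enzyme of serine synthesis, was at -0.32 and -0.37 at 12 hours, -0.43 and -0.51 at 24, and -0.69 and -0.76 at 48 hours. The replicates lay close together at each time, and in both the 48-hour value was the lowest of the 3. It passed at 48 hours at -0.73 (SE 0.069, n = 2, limma adjusted p = 0.0037) and in the mean at -0.51 (SE 0.040, n = 6, limma adjusted p = 0.00037). At 0 hours its ratio was 0.04 and 0.05. Psat1, the next enzyme of the pathway (-0.47), Mthfd1 (-0.32) and Shmt2 (-0.30) of folate metabolism, and Hspa5 (-0.27) were also lower. Atf5 and Cebpb (0.25 each) were higher in the mean, though Cebpb was at -0.03 at 48 hours. Without a single dye-swap mean 2 to 5 genes of the list were lower and 0 to 2 higher.

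Lipid synthesis genes were lower in 9 of 28 (32.1%, against 2.13% of all symbols) and higher in none, with a median of -0.18 in replicate 1 and -0.19 in replicate 2. Scd1, the stearoyl-CoA desaturase, was at -0.97 and -0.56 at 12 hours, -0.42 and -0.60 at 24, and -0.89 and -1.04 at 48 hours. Its mean was -0.75 (SE 0.092, n = 6, limma adjusted p = 0.0025). Fdps (-0.55), Cyp51 (-0.54) and Idi1 (-0.50) of sterol synthesis, and Fasn, the fatty acid synthase (-0.49), followed. Fasn and Cyp51 also passed at 12 hours, at -0.81 and -0.80 (limma adjusted p = 0.048 for both, n = 2), and lost that call without replicate 1 of 12 hours or either replicate of 24 hours. Fasn also lost it without replicate 2 of 12 hours. The list had 13 with the block and 6 to 9 without a single dye-swap mean. The letters TCACNCCAC, a sterol element, were in none of the 6 called genes with a window and in 1.22% of all genes.

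Of the mast cell and basophil list 2 of 20 were lower (10%, against 2.13% of all symbols). Cpa3, the mast cell carboxypeptidase, was at -1.16 and -0.45 at 12 hours, -1.37 and -0.48 at 24, and -1.35 and -1.05 at 48 hours, and its mean was -0.98 (SE 0.11, n = 6, limma adjusted p = 0.0019). At 0 hours its ratio was 0.03 and -0.03, so the lines did not stand apart there. Gata2, a transcription factor of progenitors and mast cells, was at -0.86 and -0.63 at 12 hours and had a mean of -0.49 (SE 0.061, n = 6, limma adjusted p = 0.0026). Kit and Fcer1a had means of -0.27 and -0.21 and did not pass, and the mast cell proteases Mcpt1, Mcpt2 and Mcpt4 lay between -0.01 and 0.05.

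Regulators of progenitors went both ways, with 4 of 29 lower and 4 higher (13.8% each, against 2.13% and 2.35% of all symbols). With Gata2, Myb (-0.42), Ikzf2 (-0.37) and Erg (-0.21) were lower. Cebpb was at 0.58 and 0.20 at 12 and 24 hours but at -0.03 at 48 hours, with 0.52 at 0 hours (n = 2 each). In the 3-time mean Id2 (0.70), Irf8 (0.35), Cebpb (0.25) and Spi1, the myeloid factor PU.1 (0.23), were higher. Without a single dye-swap mean 1 or 2 of them were higher and 3 lower.

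The remaining genes with large lower ratios have varied roles. Ola1, an ATPase, was at -0.87 and -0.82 at 48 hours, where it passed (limma adjusted p = 0.0063, n = 2), with a 3-time mean of -0.58. Ivns1abp, an actin-binding protein, was at -0.75 and -0.76 at 12 hours, where it passed (limma adjusted p = 0.013, n = 2), with a mean of -0.57. Ak4, an adenylate kinase of mitochondria (-0.71), Syce2, a synaptonemal complex protein (-0.70), and Prpf19, a splicing factor (-0.59), were also lower in the mean. Genes named by the mean were picked with the same sign in all 6 dye-swap means. Trf, transferrin, had a mean of -0.59, and its 3 other probes had -0.57, -0.56 and -0.39, the last not past the threshold. Mep1b, a meprin subunit, had -0.60 on 1 probe and -0.09 on its other, so its probes disagree. Ak4 did not pass without replicate 2 of 12, 24 or 48 hours, Trf without replicate 2 of 12 or replicate 1 of 48 hours, and Mep1b without replicate 1 of 12 or replicate 2 of 48 hours. F2r, the thrombin receptor (-0.82), and Rab38 (-0.62) passed at 12 hours, with 3-time means of -0.44 and -0.31.

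Of the receptor chains, Csf2ra, the alpha chain that binds GM-CSF, was higher. It was at 0.40 and 0.56 at 12 hours, 0.41 and 0.26 at 24, and 0.25 and 0.58 at 48 hours, and its mean was 0.41 (SE 0.060, n = 6, limma adjusted p = 0.0052 over symbols). Il3ra, the IL-3 alpha chain (0.02), Csf2rb2, the mouse beta chain for IL-3 alone (-0.24), and Csf3r (0.06) did not pass, and no probe here names Csf2rb or Csf1r, so the mutated chain itself was not checked. Ifngr1 (0.20) was the other of 20 receptor and signal genes that passed (10%, against 2.35% of all symbols higher). With the block 3 were higher. Fewer passed as higher when any single dye-swap mean was left out, and the list's median then lay between -0.001 and 0.060.

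Genes known as STAT5 targets, which respond to these receptors, passed in 1 of 19, Mcl1 (5.26%, against 2.35% of all symbols higher). Cish (0.25), Pim1 (0.25) and Ccnd2 (0.32) had limma adjusted p = 0.11, 0.067 and 0.10, Socs2 was at 0.05 and Bcl2l1 at 0.01, and Myc was at -0.29. Over the list the SE of the mean ran from 0.043 to 0.123. The site of STAT factors, TTCNNNGAA on both strands, was not in the window of Mcl1 and was in 8.13% of all genes. Of 27 ERK targets none passed without the block and 2 passed as higher with it, and no lymphoid gene of 21 passed either way.

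The ratio of the lines at 0 hours, in IL-3, was measured in the same way and is the background of these ratios. Late granule genes had a median of -0.06 there and macrophage genes one of 0.27, so of these only the macrophage median was above 0 before factor was withdrawn, a difference between lists that was not tested. The G1/S, G2/M and lipid synthesis medians were below 0 at 0 hours already, at -0.14, -0.10 and -0.11 against 3-time medians of -0.17, -0.18 and -0.18, and the ribosome median was -0.01 against -0.13. Of the 695 probes, 452 (65%) had the same sign at 0 hours in both replicates, against 28.3% of all probes, and 53 had the opposite sign. The 0-hour ratio was a median of 41.7% of the 3-time mean. No probe passed for the 3-time mean minus the 0-hour ratio with limma, while 778 had an unadjusted p under 0.05 against 1090 at no change. Other fits gave 0 to 21 probes, and 11 and 80 passed without replicate 1 and 2 of 0 hours.

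Ngp and Ltf had the largest differences from their 0-hour ratio among the named genes. Ngp was at -0.59 and -0.26 at 0 hours and Ltf at -1.36 and -0.42, lower in FI-Delta cells in both replicates, and both were higher in both replicates at each later time. The 3-time mean exceeded the 0-hour ratio by 2.03 (SE 0.30, limma adjusted p = 0.26) for Ngp and by 2.18 (SE 0.37, limma adjusted p = 0.33) for Ltf. Mmp8, at 0.72 and 1.90, and Psap, at 0.81 and 2.18, had a 0-hour ratio as high as later, with differences of -0.05 and -0.13.

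**Figure D3:**
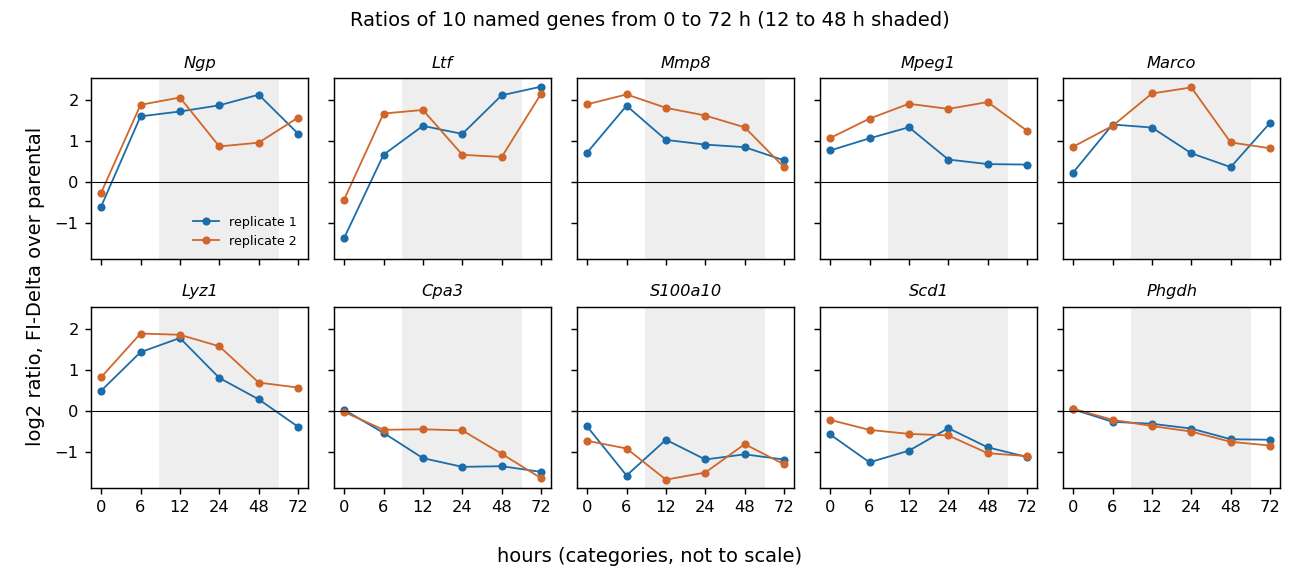
Log2 ratio of FI-Delta over parental RNA (vertical axis) at each time in hours (horizontal axis, in order but not to scale) for 10 named genes, with a line for each replicate and 12 to 48 hours shaded. Ngp and Ltf cross from below 0 at 0 hours to above 0, Cpa3 and Phgdh start near 0 and end below -0.70 at 72 hours, and Lyz1 peaks at 6 or 12 hours.

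The neighbouring times 6 and 72 hours were on separate arrays. Of the 695 probes 592 (85.2%) had the same sign in both replicates at 6 hours and 621 (89.4%) at 72 hours, against 39% and 38.7% of all probes. The late granule median was 0.72 at 6 hours, 0.82 at 12, 0.41 at 24, 0.37 at 48 and 0.40 at 72 hours. G2/M genes had 0.02, -0.09, -0.21, -0.27 and -0.32 at these times. Between 12 and 48 hours, however, no probe passed for a difference in ratio with limma, with 538 at an unadjusted p under 0.05. Another fit, on single arrays, gave 1, and 4, 18, 36 and 29 passed without replicate 1 or 2 of 12 hours or replicate 1 or 2 of 48 hours.

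Each line was also compared with its own 0-hour RNA on other arrays, which hold the same RNAs as above and so are a description. In parental cells in GM-CSF the mean of 12, 24 and 48 hours over 0 hours was -1.46 for Ngp and -1.67 for Ltf, and in FI-Delta cells it was 0.63 and 0.85. Over the single dye-swap means Ngp ran from -2.55 to -0.37 in parental cells and from -0.62 to 2.19 in FI-Delta cells, so the FI-Delta values lay on both sides of 0. Macrophage genes had changes above 0 in both lines, with medians of 0.33 in FI-Delta and 0.30 in parental cells. Lipid synthesis genes had medians of -0.30 and -0.25, ribosome genes -0.28 and -0.07, and G2/M genes -0.18 and -0.05. For Phgdh the FI-Delta value was -0.33 and the parental value 0.15.

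Adding the 0-hour ratio to the difference of these changes gives an indirect FI-Delta over parental value. It had the sign of the direct mean for 29 of the 30 genes named by their ratio at a single time or in the mean. These genes were picked by large direct ratios in the same RNAs. Agreement in sign was therefore likely beforehand and is no check, and its share over all probes was not computed. The indirect value was 1.66 against 1.61 for Ngp and 1.62 against 1.29 for Ltf. S100a10 was at -0.67 against -1.16, and Gata2, the exception, was at 0.09 against -0.49.

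**Figure D4:**
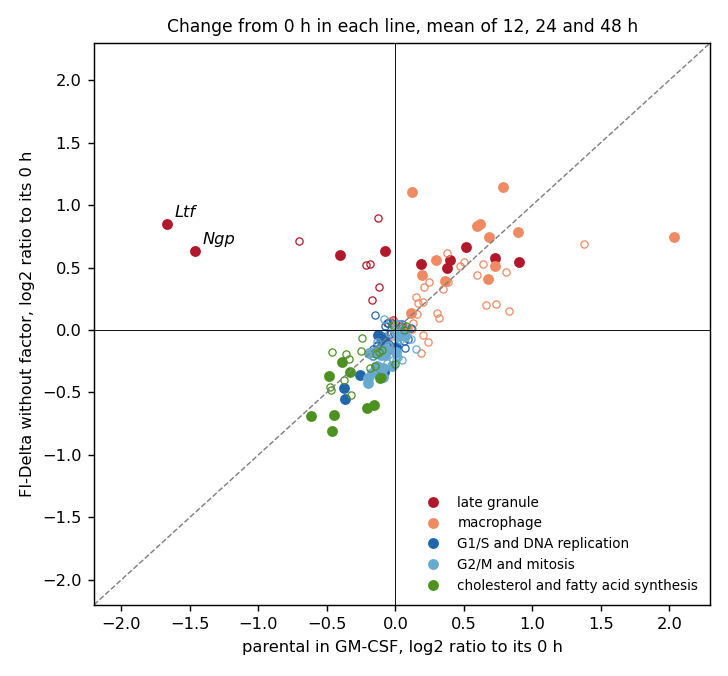
Each point is a gene of 5 lists, with its log2 change from 0 hours in parental cells in GM-CSF (horizontal axis) and in FI-Delta cells without factor (vertical axis), both the mean of 12, 24 and 48 hours. Filled points passed the direct comparison and the dashed line marks equal change; Ngp and Ltf lie at the far left, with -1.46 and -1.67 in parental cells and 0.63 and 0.85 in FI-Delta cells.

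Markers of granulocytes, macrophages and other blood cell types were also described. Several are members of the lists above with the same values, so they add no separate support. Over all symbols 2.35% were higher and 2.13% lower. Of 8 macrophage markers measured 5 were higher, with 3-time means from 0.19 to 1.33, and of 8 neutrophil markers 5 were higher, from 0.46 to 1.61. Promyelocyte markers ran from -0.35 to -0.04, with 1 of 4 lower, and mast cell and basophil markers from -0.98 to -0.07, with 2 of 7 lower. The wider mast cell and basophil list did not share that range, with 11 of its 20 means above 0 and a median of 0.00. None of 4 eosinophil, 4 megakaryocyte and 4 lymphoid markers passed, and Hba-a1 (0.22) was higher among 3 erythroid ones. A ratio gives no level, so whether any marker is absent from these cells cannot be read here. The part of each cell type in the ratios was not tested.

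The replicates weighted the groups differently. Late granule and stefin genes had larger medians in replicate 1 (0.84 and 0.42, against 0.27 and 0.11), and macrophage, lysosome and G1/S genes were further from 0 in replicate 2 (0.32, 0.28 and -0.30, against 0.11, 0.05 and -0.06). Ribosome and lipid synthesis genes were alike in both (-0.12 and -0.17, and -0.18 and -0.19). Whether the replicate or its print run goes with this was not tested.

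**Figure D5:**
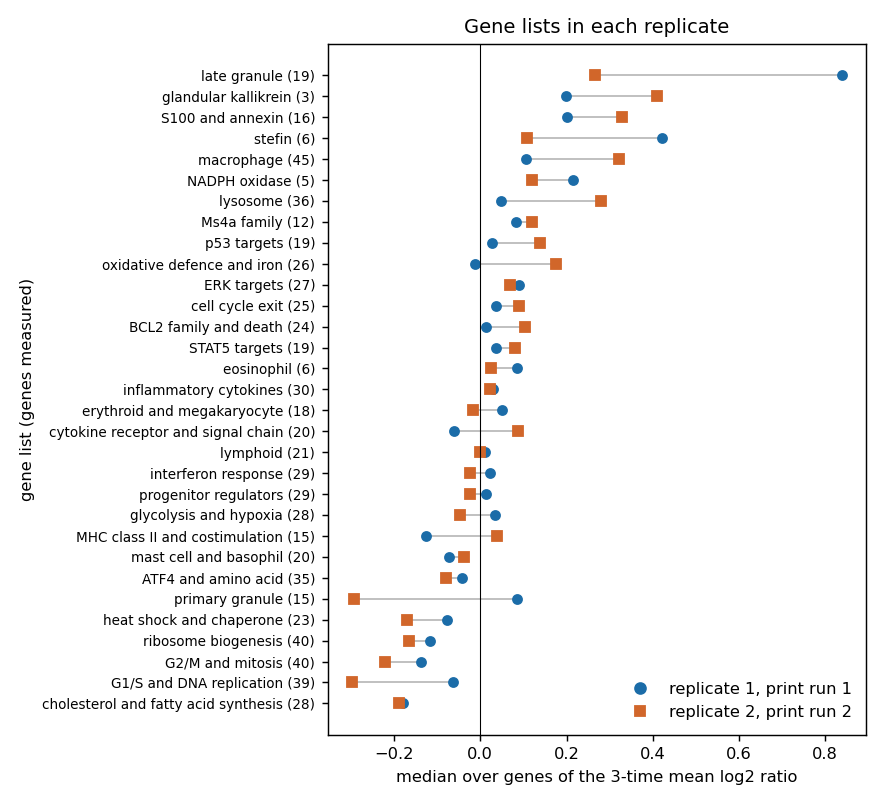
Median over the genes of each list (vertical axis, number of genes in brackets) of the 3-time mean log2 ratio (horizontal axis), with circles for replicate 1 and squares for replicate 2. The late granule list is at 0.84 and 0.27, the macrophage list at 0.11 and 0.32, and the primary granule list at 0.09 and -0.29, on both sides of 0.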

How the data were processed

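The deposited values are 1 table of log2 ratios of 116 spotted 2-colour arrays. Per the labels, Cy5 is channel 1, the authors re-ordered the spots to the layout of print run 2 after normalisation, and per the submitters' processing notes limma was used. The log base, direction, background correction and normalisation method are not given in the sources used here, and log2 of Cy5 over Cy3 is likely.

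Of 23040 probes, 1243 controls were left out and 21797 tested, with no missing value. GEO's platform annotation gave 16651 probes 1 symbol, 137 several and 5009 none. Entrez identifiers of 15973 probes matched the RefSeq table (GRCm38.p6), and no symbol changed. Lists use probes averaged per symbol (15097 symbols), and named genes use single probes unless stated.

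Signs were turned to FI-Delta over parental and dye orders averaged. The 12 dye-swap means of 6 times were fitted by lmFit and eBayes of limma 3.58.1 under R 4.3.3, with 1 mean per time and no block. This left 6 residual and 5.39 prior degrees of freedom. P-values are 2-sided, with Benjamini-Hochberg adjustment over all probes or symbols. In simulated data with 200 changed probes of 21797 the fit of the 3-time mean recovered 99% of the probes changed by 0.5 and 100% of those changed by 1 (4.78% of calls false). At 12 hours it recovered 77% and 100% (5.85% false). The simulated noise was normal and independent, with no effect of replicate or print run. In the arrays themselves 86 probes passed for the replicate term of the blocked fit, so these rates need not hold there.

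In the FI-Delta against GM-CSF arrays, though not in the whole series, the labels put replicate 1 on print run 1 and replicate 2 on print run 2, so the pairing comes from the print run. In the fit of RNA levels over all arrays the block is the replicate number alone. Differences between replicates correlated between times at r = -0.07 to 0.39 (median 0.10). Values with the replicate block stand beside counts it moves.

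Named genes are those with 1 symbol, with 1 probe each: the 6 highest and lowest past the threshold at each time with the same sign in both replicates, the 10 highest and lowest in the 3-time mean with the same sign in all 6, the 5 highest and lowest for each difference between times (none passed), up to 5 per list, and the receptor chains. Genes beyond these were chosen after their values were seen. Members and lists were chosen with earlier results of these data known. The C/EBP, E2F and sterol motifs were chosen after the values were seen, and the STAT motif earlier.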

Additional observations from a re-analysis of the deposited data

Results flagged for a closer look

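For 6 named genes the ratio at 0 hours had the opposite sign, in both replicates, to the ratio at a later time. The differences between the single times and 0 hours were not tested. The 3-time mean minus the 0-hour ratio was tested with limma, and no gene passed. The ratio of Ngp was above that at 0 hours by 2.32 at 12 hours, 1.80 at 24 hours and 1.98 at 48 hours. For Ltf the differences were 2.46, 1.82 and 2.26. Phgdh differed from its 0-hour ratio by -0.39, -0.51 and -0.77 at these times, Mep1b by -0.84, -0.82 and -0.62, and Fasn by -0.89, -0.32 and -0.48. F2r differed by -1.08 at 12 hours and -0.47 at 48 hours. The 0-hour ratios of Phgdh and Fasn lay between 0.04 and 0.08 and that of Mep1b was 0.02 in replicate 1, so their sign there rests on values near 0. Over all probes, 53 of the 695 that passed in the 3-time mean had this opposite sign in both replicates.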

How the results depend on the processing

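Counts at single times moved most with the settings. At 12, 24 and 48 hours and at all 3 they were 35, 1, 4 and 1 as reported. The replicate block, which pairs samples by print run, gave 86, 22, 68 and 7, RNA levels over all arrays with the block 67, 38, 63 and 12, and single arrays with a dye term 223, 137, 160 and 35. Centring and scaling gave 59 at 12 hours and 16 at 48 hours, the dye-swap means of 12, 24 and 48 hours alone 1 at each of these times, and averaging per symbol 0 at 24 hours, 2 at 48 hours and 0 at all 3. The 3-time mean had 695 as reported, 1219 with the block, 1632 with RNA levels, 1709 with single arrays and 421 with the 3 times alone. Single arrays also gave 1 for 48 minus 12 hours and 21 for the mean minus 0 hours, where the other fits of all samples gave 0. Without 1 replicate of 1 time the counts ran from 25 to 53, 2 to 33, 5 to 99 and 0 to 2 at the times and all 3, from 259 to 548 for the mean, from 0 to 36 for 48 minus 12 hours and from 0 to 80 for the mean minus 0 hours. The lone sample left at that time is then assumed to vary like the others. The cause of these shifts was not tested.

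For the named genes no value reversed. Without 1 replicate 165 kept their side of the threshold and 39 did not, and under the other settings 213 did and 25 did not. The mean minus 0 hours could not be fitted on the 3 times alone, which hold no 0-hour sample. Each single-time ratio rests on 2 values, and without intensities the signal over background behind it is unknown.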

Other observations

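Several probes with no gene name had ratios as large as the named ones in the mean of 12, 24 and 48 hours. CGEN_MOUSE_3005291_1 was at 1.24 and CGEN_MOUSE_3002129_1 at 1.03, and CGEN_MOUSE_EXT_3109595_1 was at -0.96 and CGEN_MOUSE_3003866_1 at -0.93. CGEN_MOUSE_EXT_3109595_1 had a ratio of 0.52 at 0 hours, and its change from 0 hours was 0.68 in parental cells and -0.64 in FI-Delta cells. CGEN_MOUSE_3003866_1 had changes of -0.94 in parental and -2.12 in FI-Delta cells.

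Some genes with the larger ratios are known from other tissues. Of 3 glandular kallikreins measured, Klk1b11 (0.48) and Klk1b24 (0.30) were higher (66.7%, against 2.35% of all symbols). At 72 hours the ratios of these kallikreins were 1.11 and 1.00. Class II genes H2-Ea (-0.46) and H2-Ab1 (-0.27) were lower, of 15 measured (13.3%, against 2.13% of all symbols). The count was 0 without replicate 1 of 12 hours or of 48 hours, 1 without replicate 2 of 12 or 48 hours or replicate 1 of 24 hours, and 3 with the block or without replicate 2 of 24 hours. In FI-Delta cells their change from 0 hours was -1.02 and -0.62. Plk3, a p53 target, was higher at 0.69, the only 1 of 19 p53 targets to pass (5.26%, against 2.35% of all symbols higher).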
